A study of Macaca mulatta with 2 samples.

Results

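A set of 10 genes of fetal growth was followed in primary Sertoli cell cultures of the rhesus macaque, Macaca mulatta. Of these, 5 belong to the LIN28B-HMGA2-IGF2BP axis (LIN28B, HMGA2, IGF2BP1, IGF2BP2 and IGF2BP3) and 5 are imprinted genes (DLK1, PLAGL1, MEST, PEG3 and PEG10). Members were the non-control probes whose gene name on the array was one of these 10 symbols, which took 17 of 35019 probes and 10 of 21509 gene names. RNA from 1 infant and 1 pubertal culture was hybridised to 1 single-colour array each, so there was no replicate and no difference carries a test. Infant cells came from the testes of males under 3 months old. Pubertal cells came from juvenile males, labelled 18 to 22 months, that had been brought into puberty by gonadotropin-releasing hormone, given through a catheter every 3 h over 4 to 5 weeks, at 0.15 µg/min for 2 min each time. Both cultures had been kept for 12 h with follicle-stimulating hormone at 5 ng/ml and testosterone at 100 nM before RNA was taken. Age, hormone-induced puberty, animal and culture cannot be told apart in this design, and how many animals each culture came from is not stated in the labels. Both cultures were postnatal, so a change around birth itself was not covered.

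LIN28B is an RNA-binding protein that blocks the maturation of the let-7 microRNAs. Let-7 in turn represses HMGA2, a chromatin protein with AT-hooks, and the IGF2BP proteins, which bind messenger RNAs such as those of IGF2 and MYC and affect their stability and translation. Imprinted genes are expressed from 1 parental copy, and many of those active on the paternal copy promote growth before birth and decline in many organs during juvenile life. In the testis, Sertoli cells divide in the infant and stop dividing as they mature at puberty.

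The probes are 60-base human oligonucleotides, and monkey RNA had to cross-hybridise to them. A stretch of 30 bases of the probes on which the values below rest is shown for identification, written 5′ to 3′ as in the deposited files. The stretch is bases 1 to 30, except bases 31 to 60 for the IGF2BP1 probe with a G run and bases 11 to 40 for the HMGA2 probe GT_HS_44k_2312. The probes with the largest differences were those of PEG10 and IGF2BP1, and the IGF2BP1 probe that gave a signal ended in a run of 6 G, in capitals.
PEG10 GT_44k_23_P82503: ctataagtggacatgcgtacttacttgtaa
IGF2BP1 GT_44k_23_P83498: tggcagctccacttgcttaggttaGGGGGG
IGF2BP1 GT_44k_23_P343954: cggtgaacgagttgcagaatttgacggcag
IGF2BP3 GT_44k_23_P19987: aacaaaaggctacatttccatggggccagc
PLAGL1 and HMGA2 had several probes, which let their values be compared within a gene. For HMGA2, 2 of 4 probes shared 40 bases, and the shared bases within the printed stretch are in capitals.
PLAGL1 GT_44k_23_P8175: ggctgtgtatttcttttcagggatttttct
PLAGL1 GT_44k_24_P312041: atgctggtaaagtaaacctgcccaaggagc
HMGA2 GT_44k_23_P95930: aagttaggtatgtttgcaggagaaaagtat
HMGA2 GT_44k_24_P85099: ggcagacctaggaaatggccacaacaagtt
HMGA2 GT_HS_44k_2312: atccacctttTTGCAGAAATCACAGTGTGG
HMGA2 GT_HS_44k_2313: TTGCAGAAATCACAGTGTGGCTATGGTGTG
The pair of HMGA2 probes with shared bases was drawn from a different transcript record of the gene than the other pair, so the 4 probes give 3 separate readings. Between probes of different IGF2BP genes the longest run in common was 7 bases, over 8 pairs of probes. Across the array, 1 probe of another gene shared a run of 15 bases with a member probe, namely a GCLM probe with that of IGF2BP3. The GC content of the member probes ran from 35.0% to 55.0%, against a median of 43.3% over all probes.

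On each array 54.9% (pubertal) and 54.8% (infant) of gene spots stood well above background, and none was saturated. In the text, a level is the log2 processed intensity after subtraction of the array's 75th percentile (406.7 intensity units pubertal, 382.4 infant), and a difference is the pubertal level minus the infant level. The error given with a difference is that of the scanner's error model, which covers the spot and not the culture or the animal. It had a median of 0.20 over 14243 genes measured on both arrays, and with 1 array a group their number limits the precision. Of these genes, 6.32% were at least 2-fold lower and 7.32% at least 2-fold higher in the pubertal culture, and the median difference was -0.06. Checked against 13 Sertoli cell markers, the labelled cell type had 13 of 13 well above background on both arrays, WT1 and GATA4 among them, beside 66.2% of all gene names. Markers of other cells were also detected, 7 of 8 for Leydig cells and 6 of 7 for smooth muscle, so this does not single out 1 cell type.

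The measured members differed in both directions, and most by less than 2-fold. Of 10 members, 7 were well above background on both arrays, IGF2BP1 on the pubertal array alone, and LIN28B and PEG3 on neither. Among the 7, PEG10 was at least 2-fold lower in the pubertal culture, none was at least 2-fold higher, and 6 differed by less than 2-fold. The 1 of 7 is to be read against the 6.32% of all genes that were lower by this much. The median difference of the 7 was -0.16, beside -0.06 over all genes, and 3 of 7 had a positive difference, beside 45.8% of all genes. The group is named for genes that decline after birth. In these 2 cultures 4 of 7 measured members were lower in the older one, 1 of them by 2-fold or more, and 3 were higher. Of the 7 differences, 4 were beyond the 95% interval of the scanner error around 0, those of PEG10, PLAGL1, DLK1 and IGF2BP3. LIN28B and PEG3 gave no difference to read, and IGF2BP1 gave a bound alone.

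**Figure D1:**
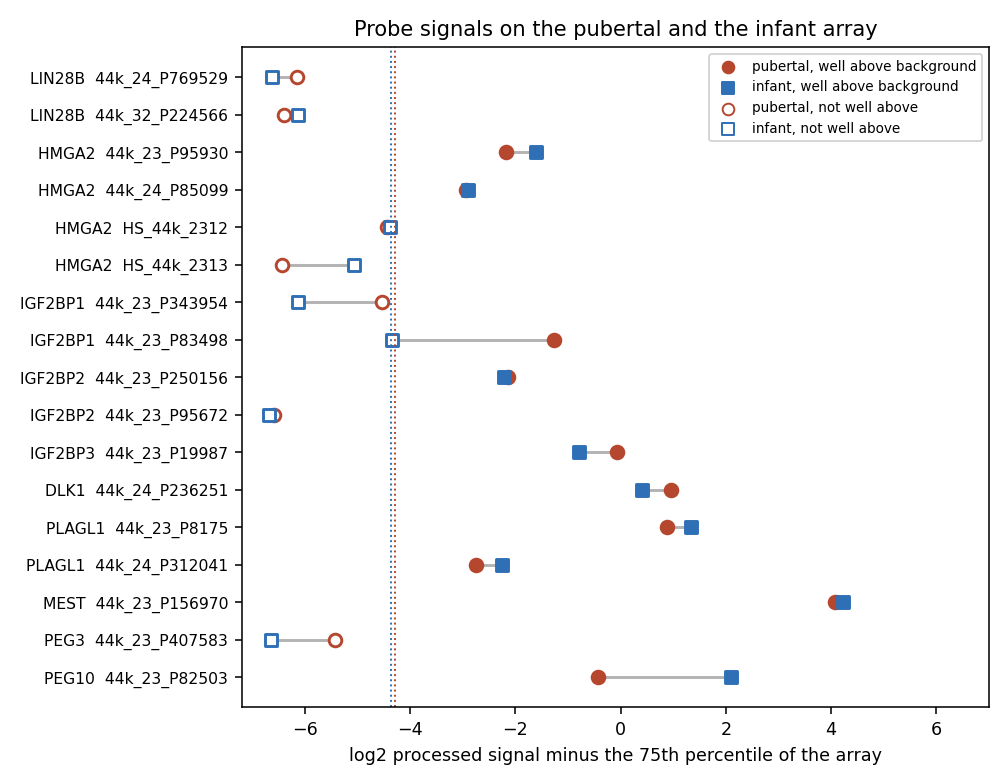
Level of each of the 17 probes (log2 processed signal minus the 75th percentile of its array) on the pubertal array (circles) and the infant array (squares), filled where well above background, with dotted lines at the lowest level well above background (-4.29 pubertal, -4.36 infant). PEG10 and 1 probe of IGF2BP1 have the widest gaps between the arrays, in opposite directions, and both LIN28B probes lie below the dotted lines. Levels of different probes cannot be compared with each other.

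LIN28B, the top of the axis, was not well above background in either culture. Its probes gave 5.71 and 4.80 intensity units in the pubertal culture and 3.88 and 5.43 in the infant culture, where the lowest signals well above background were 20.8 and 18.6. The other LIN28 family member, listed on the array as LIN28, was also not well above background on either array. At this signal over background a difference in LIN28B was not detectable, which does not show that the gene is silent.

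HMGA2 gave signals near background in both cultures and was close between them. One probe gave 53.0 intensity units in pubertal and 50.9 in infant cells, a difference of -0.03 ± 0.27 (scanner error). The other measured probe gave 90.1 and 124.8, a difference of -0.56 ± 0.22. Their mean was -0.29 ± 0.17, and the gap between the probes, 0.53 on the log2 scale with an error of 0.35, was larger than their mean. Of the pair with shared bases, one probe gave 18.8 and 18.5 intensity units and the other 4.69 and 11.4, all not well above background. Both measured probes were therefore lower or level in the pubertal culture, by less than 2-fold, except on the spike-in scale.

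The IGF2BP genes, whose products bind and stabilise growth-related messenger RNAs, gave differences of unlike size. IGF2BP1 was the only member detected in 1 culture alone: the probe with the G run gave 168.8 intensity units in the pubertal culture and 18.7 in the infant culture, where it was not well above background. Against its own infant signal, which lay above the lowest signal well above background there, the pubertal signal of this probe was 8.48-fold higher. This measured ratio, 3.08 ± 0.36 on the log2 scale (scanner error), is what is called the bound of IGF2BP1 here. No margin for the error was taken off, so it is not a strict minimum. Of 21509 gene names, 904 were detected in the pubertal culture alone. The other IGF2BP1 probe gave 17.5 and 5.46 intensity units, 3.01-fold higher on the same array but not well above background on either. With normexp background correction and an offset of 50, which draws dim signals together, the bound was 1.40 on the log2 scale in place of 3.08. With a weaker detection flag both probes counted and their mean difference was 2.34.

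A run of 6 or more G occurred in 155 of 35019 gene probes (0.443%). Of these, 2 (1.29%), the IGF2BP1 probe among them, were detected in the pubertal culture alone, against 3.86% of all probes. In the infant culture alone 4 (2.58%) were detected, against 3.42%. Regardless of detection, 3 of the 155, or 1.94%, again with the IGF2BP1 probe, were at least 8-fold higher in the pubertal culture, against 1.45% of all probes. The 118 that were measured on both arrays had a median difference of -0.06. The 15 spots around the IGF2BP1 spot on the slide had a median difference of -0.23, opposite in sign to that spot. The part of the G run or of the place on the slide in the IGF2BP1 value was not tested.

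IGF2BP3 was the measured member with the largest positive difference. It gave 389.0 intensity units in the pubertal culture and 219.6 in the infant culture, a difference of 0.74 ± 0.21 (scanner error) or 1.67-fold, and 23.3% of all genes differed by at least as much in either direction. IGF2BP2, the target gene through which HMGA2 is known to act in muscle precursors, gave 92.7 and 82.6 intensity units. Its difference was 0.08 ± 0.24, with a 95% interval from the scanner error of -0.38 to 0.54, so a 2-fold difference lay outside it, although spike-in scaling put the difference itself at 0.98. Another IGF2BP2 probe was not well above background in either culture. In order of difference, the IGF2BP1 bound lay above IGF2BP3, and IGF2BP3 lay above IGF2BP2 by less than 2-fold. The interval of IGF2BP3, 0.33 to 1.14, overlapped that of IGF2BP2. An overlap of intervals does not decide whether the differences of these 2 genes are unlike.

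**Figure D2:**
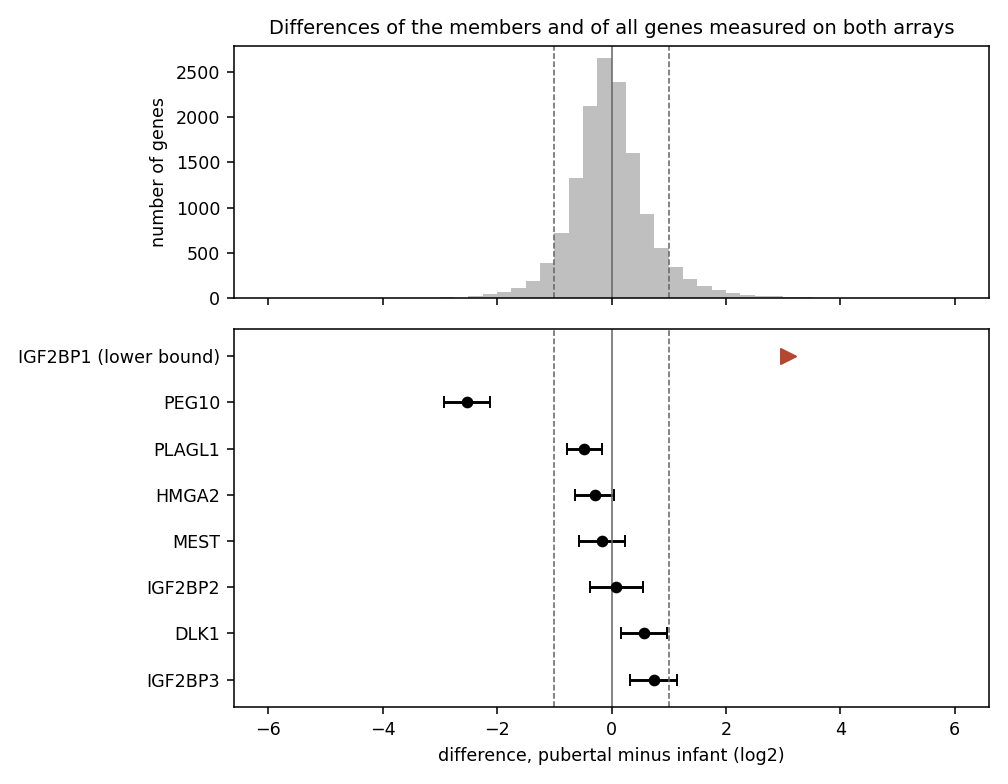
Upper panel: number of genes by difference between the arrays (log2, pubertal minus infant; bins of 0.25, values beyond 6 in the end bins) for the 14243 genes measured on both. Lower panel: difference of each of 7 members with a bar for its 95% interval from the scanner error, and the lower bound of IGF2BP1 as an arrowhead at 3.08; dashed lines mark 2-fold. PEG10 lies at -2.53, and the other 6 lie between -0.47 and 0.74.

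PEG10, an imprinted gene that derives from a retrotransposon and is needed for the placenta, had the largest difference of the 7 measured members. Its probe gave 300.4 intensity units in the pubertal culture and 1633 in the infant culture. The pubertal culture was lower by 5.78-fold, a difference of -2.53 ± 0.21 (scanner error), the 47th lowest of 14243 genes. Both spots were well above background and not in a disturbed area of the slide, and the 14 spots around it had a median difference of 0.19. Over 12 alternatives its difference ran from -2.69 with median scaling to -1.63 with spike-in scaling, which sets the arrays by their control probes. PEG10 rested on 1 probe with 1 spot an array.

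No measured gene within 3 places of PEG10 in the macaque gene order was lower by 2-fold or more. SGCE, which codes for a sarcoglycan and is imprinted together with PEG10, differed by 0.37 ± 0.12 over 3 probes (0.25 to 0.56). PPP1R9A, on the other side, was lower by less than 2-fold, at -0.35 ± 0.15 over 2 probes (-0.36 and -0.34). The gap between the differences of PEG10 and SGCE was -2.90 ± 0.24, a value in which the scaling between arrays cancels. CASD1, next after SGCE, differed by 0.24, and COL1A2, a collagen chain beyond it, by 1.92. On the PPP1R9A side PON1 was not well above background in either culture, and PON3 was higher by 5.54.

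DLK1, a membrane protein related to the Notch ligands and known from immature Leydig cells, was somewhat higher in the pubertal culture. It gave 792.7 intensity units there and 504.0 in the infant culture, a difference of 0.56 ± 0.20 (scanner error) or 1.48-fold. At least as large a difference in either direction was found in 33.3% of all genes. Of its imprinted neighbours, the deiodinase DIO3 differed by -0.85 ± 0.23, RTL1 was not well above background in either culture, and the 2 measured probes of the noncoding RNA MEG3 disagreed, at 0.32 and -1.79. The gap between DLK1 and DIO3, in which the scaling cancels, was 1.42 ± 0.31, while the negative sign of DIO3 is lost with the spike-in shift of 0.90.

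PLAGL1, a zinc finger transcription factor known to regulate other imprinted genes, was lower in the pubertal culture with both of its probes, except with spike-in scaling. One probe gave 753.7 intensity units in the pubertal culture and 968.8 in the infant culture, a difference of -0.45, and the other gave 60.5 and 80.3, a difference of -0.50. Their mean was -0.47 ± 0.16 (scanner error), or 1.39-fold, with an SD between probes of 0.03. The 2 probes read the gene alike, although 40.8% of all genes had a difference of at least this size.

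MEST, a hydrolase-like protein of mesodermal tissues, was bright in both cultures. It gave 6798 intensity units in the pubertal culture and 7155 in the infant culture, a difference of -0.16 ± 0.20 (scanner error), with a 95% interval of -0.56 to 0.24. COPG2, the next gene on one side, differed by 0.45 ± 0.20, and KLF14, an imprinted neighbour, by -0.13. PEG3, a zinc finger protein, gave 9.44 intensity units in pubertal and 3.84 in infant cells and was not well above background on either. Without a filter on dim probes its difference was 1.21, with a scanner error of 1.61 that spanned 0. The antisense transcript of PEG3 was likewise not well above background with either of its probes.

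The directions of the small differences depended on how the arrays were scaled. Median scaling shifted every difference by -0.16, and spike-in scaling by 0.90. IGF2BP1, IGF2BP3 and DLK1 were positive and PEG10 negative under all 12 alternatives. Since IGF2BP3, DLK1 and PEG10 had 1 probe each, the settings for detection and for combining probes could not change their values. HMGA2, PLAGL1 and MEST were negative under 11 of 12 and positive on the spike-in scale (0.61, 0.43 and 0.74). IGF2BP2 was negative with median scaling and quantile normalization and positive with the other 10. Of all genes past 2-fold, 53.7% were higher on the pubertal array in the setting used here, 37.6% with median scaling and 97.5% with spike-in scaling.

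**Figure D3:**
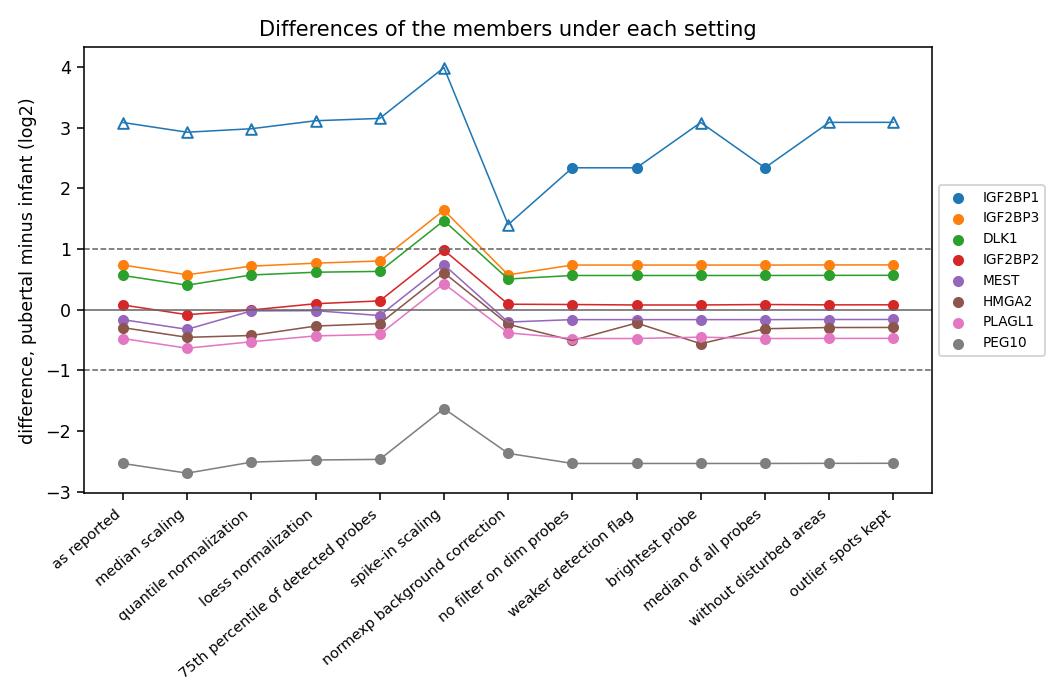
Difference (log2, pubertal minus infant) of the 8 detected members under the setting used in the text and 12 alternatives; open triangles are lower bounds, dashed lines mark 2-fold. PEG10 stays below -1 and IGF2BP1 above 1 throughout, whereas spike-in scaling moves all members up by 0.90 and lifts HMGA2, PLAGL1 and MEST above 0.

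Among 35 other genes listed as imprinted, 27 were measured on both arrays, with a median difference of 0.07. In the pubertal culture 2 of them were at least 2-fold lower and 1 at least 2-fold higher. Whether each listed gene, DCN among them, is imprinted in macaque Sertoli cells was not measured. By this much, 6.32% of all genes were lower and 7.32% higher. GRB10, an adaptor that restrains insulin and IGF receptors, was higher by 1.80 ± 0.15 (scanner error), with probes at 1.02 and 2.59. The matrix proteoglycan DCN differed by -1.49 and neuronatin, NNAT, by -1.35. The potassium channel gene KCNQ1, the next largest, differed by 0.98. IGF2, the fetal growth factor whose messenger RNA the IGF2BP proteins bind, differed by 0.42 ± 0.17 with probes at 0.21 and 0.64, and H19, the noncoding RNA from the same imprinted region, by -0.93 ± 0.20. The gap between IGF2 and H19 was 1.35 ± 0.26, in which the scaling cancels. CDKN1C, a cell cycle inhibitor of the same region, differed by 0.07.

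Genes that process let-7 were close between the cultures. Of 17 listed genes, 14 were measured on both arrays, with a median difference of -0.16, none at least 2-fold higher and 1, TUT4, at least 2-fold lower. Over all genes, 7.32% were higher and 6.32% lower by this much. TUT4, which adds uridines to the let-7 precursor and is listed as ZCCHC11 on the array, differed by -8.44. This value rested on 1 spot, in an area of the slide where signals were disturbed, and without such areas the gene was not measured and no gene of the list was past 2-fold. The Argonaute protein AGO2 differed by -0.74, its partner TNRC6A by 0.48 and the exporter XPO5 by -0.39. DICER1, which cuts the precursor, differed by -0.32 and DROSHA, which acts before it, by 0.25. With spike-in scaling 5 genes of the list were at least 2-fold higher and its median was 0.75. On that scale 5540 of 14243 genes were higher by this much, and the median over all genes was 0.85. Without a filter on dim probes the median of the list was 0.12, beside 0.06 over all genes. The array did not measure let-7 itself.

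Of 19 other genes known as let-7 targets, all 19 were measured, 3 at least 2-fold lower and 1 at least 2-fold higher in the pubertal culture. Of all genes 6.32% were lower and 7.32% higher by this much. Their median difference was -0.50, beside -0.06 over all genes, and 4 of 19 were positive, beside 45.8% of all genes. The death receptor FAS (-1.37), the GTPase NRAS (-1.33) and the cell cycle kinase CDK6 (-1.10) were the 3 lower genes, and ARID3B, a DNA-binding protein, was higher by 2.08. With normexp correction FAS was at -0.95 and NRAS at -0.58. With spike-in scaling the median of the list was 0.41, beside 0.85 over all genes. With the brightest probe of each gene the median of the list was -0.16, beside -0.05 over all genes.

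Genes of the postnatal growth decline that are not imprinted showed 2 of 13 measured members at least 2-fold lower, none at least 2-fold higher and a median of -0.16. Over all genes, 6.32% were lower and 7.32% higher by this much, and the median was -0.06. The Hedgehog transducer SMO differed by -1.75 and the cell cycle factor E2F3 by -1.20. The cell cycle kinase CDK1 differed by -0.84 and MYCN, also a let-7 target, by 0.78. EZH2, a histone methyltransferase, differed by 0.32. On the spike-in scale SMO and E2F3 stood at -0.84 and -0.30, 6 genes of the list were at least 2-fold higher and its median was 0.75. By that scaling 5540 of 14243 genes were higher by this much, and the median over all genes was 0.85.

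**Figure D4:**
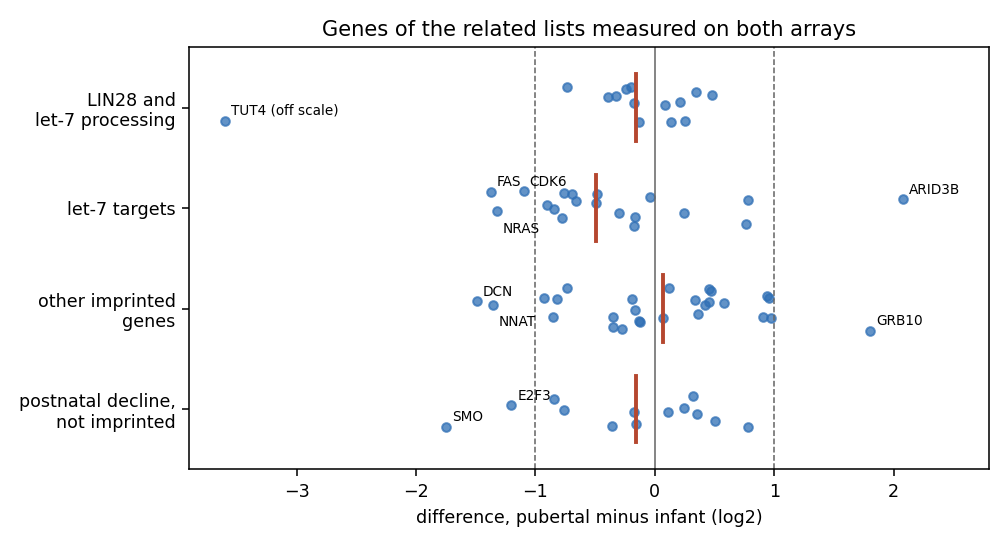
Difference (log2, pubertal minus infant) of each gene measured on both arrays in 4 related gene lists; red bars are list medians, dashed lines mark 2-fold, and genes past 2-fold are named. TUT4 lies off the scale at -8.44 and is drawn near the left edge. Most genes lie within 2-fold, and the let-7 targets have the lowest median, at -0.50.

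Markers of other testicular cells differed between the cultures beside these genes. Counts of markers past 2-fold are to be read against 6.32% of all genes lower and 7.32% higher by this much. Summed intensities are given to show the signal of each list, and since probes differ in affinity a sum follows its brightest probes. In RNA from a whole culture, fewer cells of a type and less RNA per cell cannot be told apart. Of 14 germ cell markers, 5 were measured on both arrays, 3 of them at least 2-fold higher in the pubertal culture, and 6 more were detected on the pubertal array alone, as IGF2BP1 was. DAZL, a germ cell RNA-binding protein, was higher by 4.72 and STK31, a germ cell kinase, by 4.71. Their infant signals were dim, and with normexp correction they stood at 3.38 and 3.25. Without a filter on dim probes STK31 stood at 2.36. The summed intensity of the germ cell list was 19224 units pubertal and 19775 infant, and UCHL1, a neuronal and spermatogonial hydrolase, was lower at -1.52. GFRA1 and STRA8 were not well above background in either culture. The part of germ cells in the IGF2BP1 value was not tested.

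Of 8 Leydig cell markers, 3 of 7 measured were at least 2-fold lower in the pubertal culture, STAR at -4.24, CYP17A1 at -4.21 and CYP11A1 at -1.37, and LHCGR was not well above background on either. The other 4, INSL3, HSD17B3, HSD3B2 and NR5A1, lay between 0.17 and 0.41, and the median of the 7 was 0.17. Their summed intensity was 20108 units pubertal and 58685 infant. DLK1, at 0.56, had the sign of these 4 and not of the 3 lower steroidogenic genes. Of 7 smooth muscle markers, 3 of 6 measured were at least 2-fold higher, with ACTA2 at 3.46 and MYH11 at 2.24. LMOD1 was lower at -0.85, MYOCD was not well above background, and the summed intensities were 148690 and 90964 units. Macrophage markers were at least 2-fold higher for 3 of 5 measured (CD163 at 3.09, CSF1R at 2.07), with sums of 1906 and 375.3 units. CD68 was the only one of these 5 that was lower, at -0.94. Endothelial markers were at least 2-fold higher for 1 of 3 measured (PECAM1 at 1.43, VWF at 0.99), with sums of 5898 and 2135 units. CDH5 and KDR were not well above background. Of the 13 Sertoli cell markers, 4 were at least 2-fold higher, among them TF at 3.32 and AMH at 3.28, and 1 was at least 2-fold lower, INHBB at -1.31. With normexp correction MYH11 stood at 1.12, CSF1R at 1.17 and PECAM1 at 0.94, and no endothelial marker was at least 2-fold higher. ACTA2, STAR and AMH then stood at 3.27, -4.18 and 3.24. Without a filter on dim probes TF stood at 1.725. The part of any of these cell types in the values of the members was not tested.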

How the data were processed

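Messenger RNA was measured in 2 primary Sertoli cell cultures, 1 infant and 1 pubertal, grouped by the sample titles. The deposited files give an intensity for each spot, from Agilent Feature Extraction 10.5.1.1 (per the submitters' processing notes). The processed intensity, per the file headers, was background-subtracted and detrended within each array, low values were replaced by a surrogate, and the design is a human one on hg18. Flags for background, saturation and outliers (0 or 1, another unit) were used as deposited by the authors. The files list the member probes as unmapped, so no position is given.

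Outlier spots were left out (96 pubertal, 91 infant), log2 was taken, each array's 75th percentile subtracted and spots of a probe averaged. Detection of a probe needed 50% of its spots well above background, and probes detected on both arrays were averaged into a gene. For a gene detected on 1 array, the bound was taken against the dim signal or, where higher, the lowest detected signal of that array. No scanner error was taken off a bound. A 95% interval follows from a normal scanner error. Normexp came from limma 3.58.1, the rest from Python 3.11.15. Neighbouring genes were taken from the order of named protein-coding genes in RefSeq's macaque table (T2T-MMU8v2.0), where 10 of 10 members matched by symbol, 3 to each side. Functions were tested on simulated data.

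The members and lists were chosen with earlier results of these data known. Every member is named, with up to 4 genes of each of 4 pathway lists and 2 of each of 6 marker lists by size of difference. Other named genes were chosen for their place in a pathway, beside a member in the genome, or after their values were seen.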

Additional observations from a re-analysis of the deposited data

How the results depend on the processing

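The 12 alternatives kept PEG10 as the only measured member at least 2-fold lower. In the setting of the text it was also the only one at thresholds of 1.5- and 4-fold. With median scaling PLAGL1, at -0.63, was past 1.5-fold too, and with spike-in scaling PEG10, at -1.63, did not reach 4-fold. The number at least 2-fold higher, 0 in the text, was 2 with spike-in scaling (IGF2BP3 and DLK1), 2 without a filter on dim probes and 2 with the median of all probes (IGF2BP1 and PEG3 in both), 1 with the weaker detection flag (IGF2BP1) and 1 at 1.5-fold (IGF2BP3). The median over members, -0.16, was 0.74 with spike-in scaling and 0.094 both without a filter and with the median of all probes, where LIN28B, IGF2BP1 and PEG3 entered. Beside these, the median over all genes was 0.85 with spike-in scaling, 0.06 without a filter and 0.07 with the median of all probes. Over all genes, 1042 higher and 900 lower became 5540 and 142 with spike-in scaling, 553 and 568 with normexp correction, 2081 and 1485 without a filter, 1710 and 1363 with the weaker flag and 2056 and 1484 with the median of all probes. The 3 let-7 targets at least 2-fold lower were 5 with median scaling, 0 with spike-in scaling and 1 with normexp, and the 1 higher was 4 with spike-in scaling and 3 with the brightest probe. The 2 lower and 1 higher of the other imprinted genes were 4 lower with median scaling and 0 lower and 13 higher with spike-in scaling. Their 1 higher was also 4 with the 75th percentile of detected probes, 3 without a filter and with the median of all probes, and 2 with quantile or loess normalization and with the weaker flag. With spike-in scaling the let-7 processing list had 5 higher and the postnatal decline list 6 higher and 0 lower, against 0 higher in both and 2 lower in the latter. The decline list had 1 higher without a filter, with the weaker flag, with the brightest probe and with the median of all probes. The 3 germ cell markers at least 2-fold higher were 10 without a filter or with the median of all probes and 7 with the weaker flag. With spike-in scaling 10 Sertoli, 4 Leydig, 5 smooth muscle and 3 endothelial markers were at least 2-fold higher. No paired analysis was possible because each group had 1 array. Signals not well above background limit LIN28B and PEG3, and dim signals limit HMGA2 and IGF2BP2. PEG10, MEST, DLK1, IGF2BP3 and IGF2BP2 rested on 1 probe each, as did the bound of IGF2BP1.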

Other observations

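Of 60 named protein-coding genes that stand within 3 places of a member in the macaque gene order, 39 were measured on both arrays, with a median difference of 0.11. In the pubertal culture 5 were higher and 3 lower by 2-fold or more, where 7.32% and 6.32% of all genes were. This choice of genes was made after the data were seen. Beside LIN28B, POPDC3 was higher by 1.67 although LIN28B itself was not well above background. Beside IGF2BP1, ABI3 was higher by 2.83, while SNF8 and UBE2Z both differed by -0.48 and the nearest genes on either side, B4GALNT2 and GIP, were not well above background. Beside IGF2BP2, SENP2 differed by -0.47 and TRA2B, a splicing factor, by -0.68. Beside IGF2BP3, GPNMB, a membrane glycoprotein, differed by -1.21 and NUP42, a nucleoporin, by 1.08. Beside PLAGL1, PHACTR2 differed by -0.97 and STX11 by -1.16, and the splicing factor gene SF3B5, the nearest, by -0.12.

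In the imprinted region of PEG3, USP29 and ZIM2 were each detected in 1 culture only. USP29, which is imprinted with PEG3, was detected on the pubertal array alone and at least 4.02-fold higher there, from a probe with 79.5 intensity units against 3.83. ZIM2 passed detection in the infant culture only, at 26.6 intensity units against 18.0, or at least 1.36-fold lower in the pubertal culture.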
